A study of Mus musculus with 18 samples.

Results

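The choroid plexus of MRL/lpr mice was compared with that of MRL/+ mice at 16 weeks of age, over all genes that passed a filter on low counts. The comparison used 9 of the 18 RNA sequencing libraries of the study: 6 from MRL/lpr at 16 weeks and 3 from MRL/+ at 16 weeks, each from choroid plexus that was dissected and flash frozen. The lpr allele disrupts the death receptor gene Fas, and on the MRL background its carriers (MRL/lpr) develop disease that resembles lupus, whereas MRL/+ has the background with an intact Fas gene. The other 9 libraries are the same strains at 12 weeks (6 MRL/lpr and 3 MRL/+) and entered the fit to estimate the spread. The labels give no sex and do not state whether each library is a different animal, and p-values here measure only the spread between samples, which may be technical. All libraries are bulk tissue, in which fewer cells of a type and less RNA per cell cannot be told apart.

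The choroid plexus lines the brain ventricles with a secretory epithelium over a stroma of leaky capillaries, fibroblasts and macrophages, and it makes most of the cerebrospinal fluid. Its epithelial cells, sealed by tight junctions, form the barrier between blood and cerebrospinal fluid. The healthy stroma holds few lymphocytes. In chronic autoimmune inflammation B cells, T cells and dendritic cells can gather in ordered aggregates, tertiary lymphoid structures, whose assembly is known to depend on chemokines such as CXCL13 and on lymphotoxin. The question set by the study's title is whether such structures form in the choroid plexus in lupus.

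Total counts in the 18 libraries ran from 11164284 to 14602253. The choroid plexus markers were abundant in each of the 9 libraries, with Ttr alone, the transthyretin gene, taking 13.5% to 19.3% of counts in MRL/lpr and 17.3% to 19.96% in MRL/+. RNA of other tissues was present in some libraries. The summed level of skeletal muscle genes was 885 CPM (read counts scaled to a fixed library size after TMM normalization) in MRL/+ replicate 1 and at most 83.3 CPM in any of the other 8 libraries. The sum of cerebellum genes was 384, 293 and 265 CPM in MRL/lpr replicates 1, 2 and 3, and 132 to 177 CPM in the other 6. The sum of neuronal genes ranged from 78.8 to 899 CPM across the 9 libraries, with the strains overlapping.

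Fas itself did not pass the test. Its level was 3.01 ± 1.31 CPM (SD, n = 6) in MRL/lpr and 2.24 ± 0.353 CPM (SD, n = 3) in MRL/+, with a log2 fold change of 0.43 (SE 0.45, adjusted p = 0.528 by edgeR's quasi-likelihood test). The lpr allele is an insertion into an intron, and a count over all exons does not check the strain labels. Of 13 tested genes of Fas signalling and extrinsic apoptosis 4 were higher in MRL/lpr and 0 lower (median log2 fold change 0.43). Among all tested genes 8.49% were higher and 2.64% lower. Of the 4 calls 3, 3 and 2 remained without MRL/+ replicate 1, 2 and 3 in turn.

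Of 16598 genes tested, 1410 were higher in MRL/lpr (8.49%) and 439 were lower (2.64%) at an adjusted p under 0.05. The 15 genes named for the largest rise included antibody genes (Igkc, Ighg1), the chemokine gene Ccl8, lymphocyte genes (Cd6, Slamf7) and Ubd, an interferon-induced gene. Among the lower genes Dmgdh, a mitochondrial enzyme of choline breakdown, had the smallest p and fell 7.71-fold. In 1645 genes every MRL/lpr library lay above every MRL/+ library (9.91%), and in 1453 genes every MRL/lpr library lay below (8.75%). Because of the muscle RNA in MRL/+ replicate 1, the fit was repeated without that library. With and without it, 664 genes were higher (4.0%) and 88 were lower (0.530%). Leaving out MRL/+ replicate 2 or 3 instead lowered the counts about as far, to 685 and 563 higher genes and 173 and 102 lower genes. In all 9 fits that left out 1 library of 16 weeks, 498 genes kept a higher call and 44 a lower call. Without MRL/+ replicate 1 and MRL/lpr replicates 1 to 3, which held the raised muscle and cerebellum sums, 3 libraries of MRL/lpr and 2 of MRL/+ were left, and 13 genes were higher and 3 lower. Scaled to the epithelium list in place of all genes, the split became 3974 higher and 59 lower, and the median over all genes of the log2 fold change moved from 0.03 to 0.46. Genes described below as risen or fallen kept their call in each of the 9 fits that left out 1 library of 16 weeks, unless the lost calls are given. Each list count is to be read against the shares of all tested genes, 8.49% higher and 2.64% lower. Where a list count is followed by 3 numbers of remaining calls, these are the calls left without MRL/+ replicate 1, 2 and 3 in turn, and they are printed where the count moved by more than 1.5 times. Intervals on count ratios pool the libraries of each strain. They and the lower bounds take in counting error alone and leave out the spread between libraries. Nor do they allow for PCR copies, which were not marked by molecular identifiers.

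**Figure D1:**
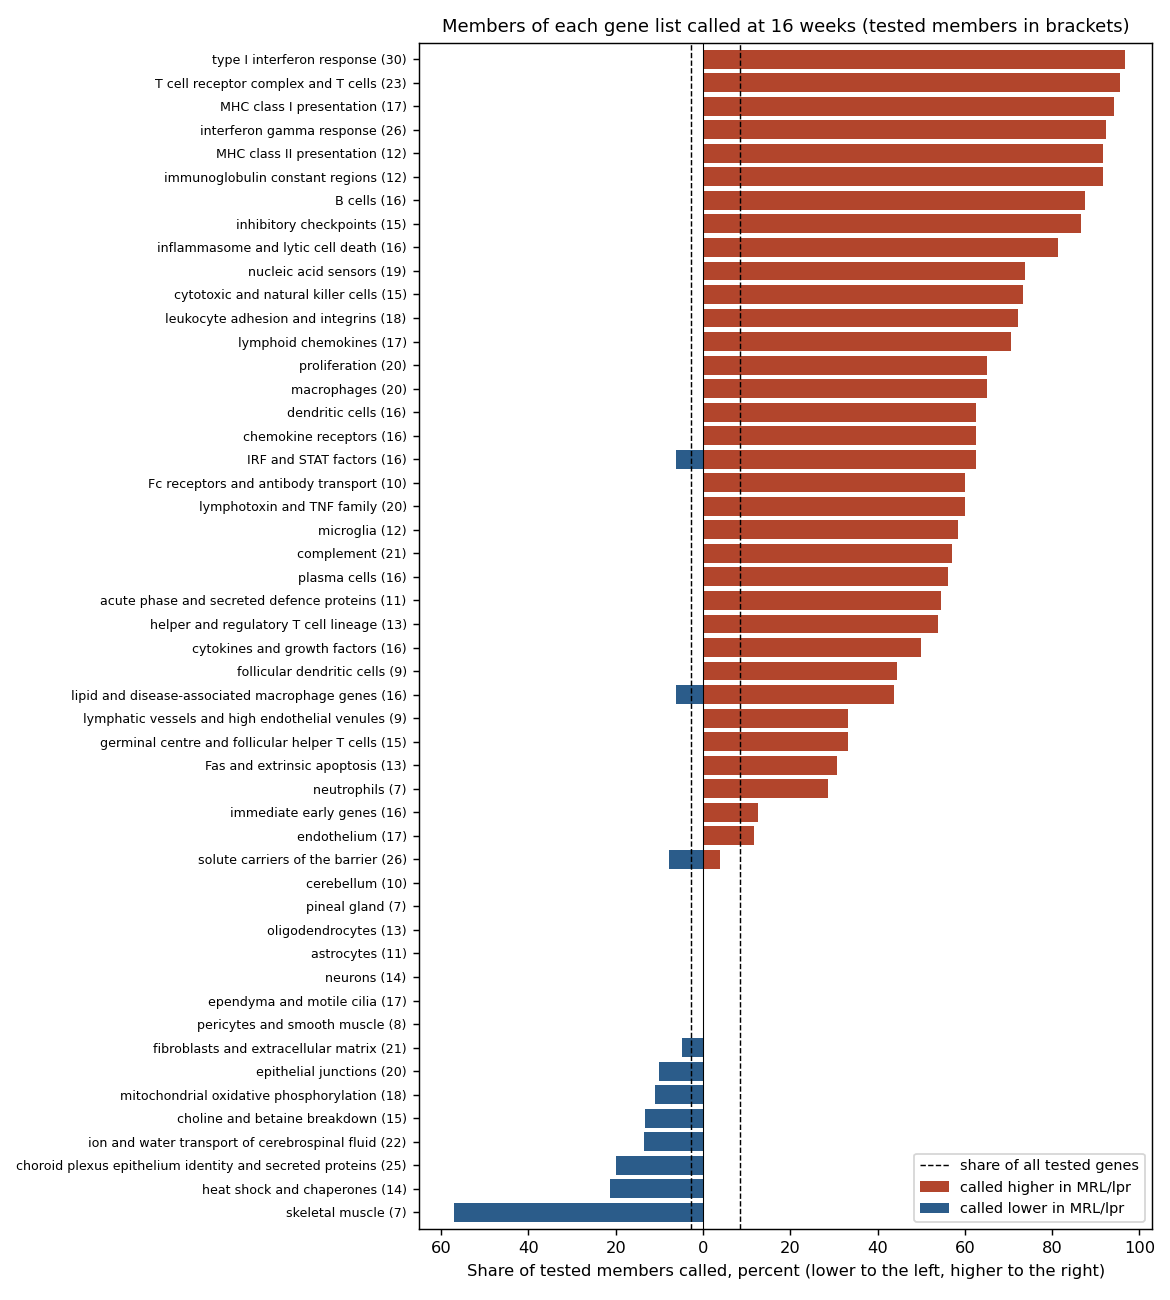
For each gene list with at least 7 tested members (number in brackets), the bars show the percent of members called higher in MRL/lpr (red, right) or lower (blue, left) at 16 weeks, and the dashed lines show the share of all tested genes, 8.49% higher and 2.64% lower. The type I interferon, T cell and MHC class I lists have the longest red bars, and markers of neurons, astrocytes, oligodendrocytes and pericytes have no called member.

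Chemokines that attract lymphocytes and monocytes rose: 12 of 17 tested members of the lymphoid chemokine list were higher in MRL/lpr, 0 were lower, and the median log2 fold change was 4.37 against 0.03 for all genes. Cxcl13, the ligand of CXCR5 that draws B cells into follicles, ran from 33.5 to 208.1 CPM in MRL/lpr (median 75.6), and was 2.19, 1.07 and 0.878 CPM in MRL/+ replicates 1, 2 and 3. This was a 68.6-fold difference (log2 fold change 6.10, SE 0.76, adjusted p = 0.000468). The lowest MRL/lpr library, replicate 6, was still far above the highest MRL/+ library. Ccl8, a ligand for monocytes and activated T cells, ran from 47.9 to 525.8 CPM in MRL/lpr (median 243.2), against 0.263, 0.585 and 0.160 CPM in MRL/+. Its 751-fold difference was the largest among the chemokines with counts in every MRL/+ library (log2 fold change 9.56, adjusted p = 9.68e-05), and it was larger still without MRL/+ replicate 2 (log2 fold change 10.17). Cxcl9, an interferon gamma-induced ligand of the T cell receptor CXCR3, ran from 34 to 324.4 CPM in MRL/lpr (median 139.5) and was 0.439, 0.0975 and 0.319 CPM in MRL/+, a 586-fold difference (adjusted p = 0.000414). Ccl5, a chemokine made by activated T cells and natural killer cells, rose from 2 counts in the pooled controls, with a ratio of counts of 425 (exact 95% interval 117.6 to 3514). For Cxcl13, Ccl8, Cxcl9 and Ccl5 the 2 lowest MRL/lpr libraries were replicates 6 and 5.

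Among chemokine genes of lymph node T zones, Ccl19, a ligand of the receptor CCR7, was 0.0819 to 1.70 CPM in MRL/lpr and did not pass the test (log2 fold change 3.10, SE 1.10, adjusted p = 0.0783). Among the controls it was counted in MRL/+ replicate 1 alone, at 0.263 CPM. Ccl21a, which encodes another ligand of CCR7, is listed at 0 in every library. A 0 in this table need not mean no expression: Tnnc2, a muscle troponin gene, is also listed at 0 in MRL/+ replicate 1, where Ckm, muscle creatine kinase, had 826 counts.

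Of 16 tested chemokine receptor genes 10 were higher and 0 lower (median log2 fold change 2.46). Cxcr6, found on activated T cells and natural killer T cells, ran from 2.05 to 20.4 CPM in MRL/lpr and stayed at or under 0.160 CPM in MRL/+ (90.3-fold, adjusted p = 0.00114). Ccr2, the receptor of inflammatory monocytes, rose 11.9-fold from 2.08 ± 1.09 CPM (SD, n = 3) to 24.7 ± 10.8 CPM (SD, n = 6). Cxcr5, the CXCL13 receptor of B cells and follicular helper T cells, had 1 count in the pooled controls and a count ratio of 145 (exact 95% interval 25.9 to 5746). Its adjusted p of 0.0121 passed with all libraries and reached 0.0732 when a control library was left out: the call was lost without each of MRL/+ replicates 1, 2 and 3, and the log2 fold change of 6.68 became 8.70 without replicate 1.

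Of the lymphotoxin and TNF family, 12 of 20 tested members were higher and 0 lower, with a median log2 fold change of 3.60, or 3.43 with genes at 0 in all MRL/+ libraries set to their lower bound, and 6, 7 and 7 calls remained. Ltb, which encodes the lymphotoxin subunit that signals to stroma, was 2.46 CPM in the lowest and 53.5 CPM in the highest MRL/lpr library (median 29.3) and 0.263, 0.292 and 0.558 CPM in MRL/+, a 72.0-fold difference (log2 fold change 6.11, SE 1.01, adjusted p = 0.00189). Tnfsf13b, which encodes BAFF, a cytokine that keeps B cells alive, rose 12.8-fold from 0.318 ± 0.0714 CPM (SD, n = 3) to 4.07 ± 2.25 CPM (SD, n = 6). Ltbr, the lymphotoxin receptor of stromal cells, was at 40.5 ± 5.67 CPM (SD, n = 6) against 44.0 ± 12.8 CPM (SD, n = 3) and did not pass the test (adjusted p = 0.658). Ltb and Tnfsf13b separated the strains without overlap, and the Ltbr values of the strains overlapped.

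B cell genes were near 0 in MRL/+ and were counted in each MRL/lpr library. Of 16 tested B cell markers 14 were higher and 0 lower, with a median log2 fold change of 6.07 (5.78 with bounds) and 7, 11 and 7 calls remaining. Their summed level was 304, 116, 90.6, 185, 45.3 and 13.9 CPM in MRL/lpr replicates 1 to 6, and 4.65, 5.17 and 3.75 CPM in MRL/+. Ms4a1, which encodes CD20, ran from 1.23 to 38.1 CPM in MRL/lpr, with 1 count in each MRL/+ library and a count ratio of 175 (exact 95% interval 59.9 to 851.9). Cd22, an inhibitory B cell receptor, and Cd79b, a signalling chain of the B cell receptor, rose with them, at log2 fold changes of 7.34 and 7.18. Replicate 1 was the highest and replicate 6 the lowest library for these 3 genes.

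Igkc, the kappa light chain constant region, had the largest difference in mean CPM of all called genes. Of 12 tested immunoglobulin constant region genes, 11 were higher and 0 lower, with a median log2 fold change of 8.48. Ighe, of the IgE class, was the exception and did not pass the test. Igkc was 8004, 6971, 2692, 7860, 1198 and 167.6 CPM in MRL/lpr replicates 1 to 6 and 5.44, 8.58 and 6.46 CPM in MRL/+. The difference was 657-fold (log2 fold change 9.36, SE 1.25, adjusted p = 0.000834). Jchain, which links IgA and IgM into polymers, rose 466-fold, from 2.46 ± 1.09 CPM (SD, n = 3) to 1144 ± 850 CPM (SD, n = 6). The IgG genes Ighg1, Ighg2c, Ighg2b and Ighg3 rose 879-fold, 837-fold, 721-fold and 669-fold, Igha of the IgA class 419-fold, and Ighm of the IgM class 60.8-fold. The call of Ighm held in each leave-one-out fit and its log2 fold change of 5.93 became 5.29 without MRL/lpr replicate 1. Reads from these near-identical genes may have been split or lost by the authors' counting, whose handling of multiple alignments is not given in the sources used here.

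Switched classes made up most of the heavy chain counts. The classes carry the names of the GRCm38 reference genes, which are not MRL sequence. Per length of gene, Ighg2c took 27.2% ± 9.34 of heavy chain counts in MRL/lpr (SD, n = 6), Ighg1 22.9% ± 12.6, Ighg3 20.5% ± 6.96, Igha 15.9% ± 10.48, Ighg2b 7.76% ± 3.03 and Ighm 5.50% ± 3.00. The order of the first 4 does not exceed their spread between libraries. Replicate 3 had the largest Ighg1 share, 45.4%, and replicate 6, the library with the fewest antibody counts, had the largest Igha share, 32.6%. Of 16 tested plasma cell genes 9 were higher and 0 lower (median log2 fold change 1.96), with 5, 5 and 7 calls remaining. Mzb1, a chaperone of antibody assembly, rose 32.0-fold and Irf4, a factor needed for plasma cell formation, rose 116-fold, while Sdc1, the plasma cell surface marker that epithelium also makes, did not pass the test (log2 fold change 0.74, adjusted p = 0.19).

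**Figure D2:**
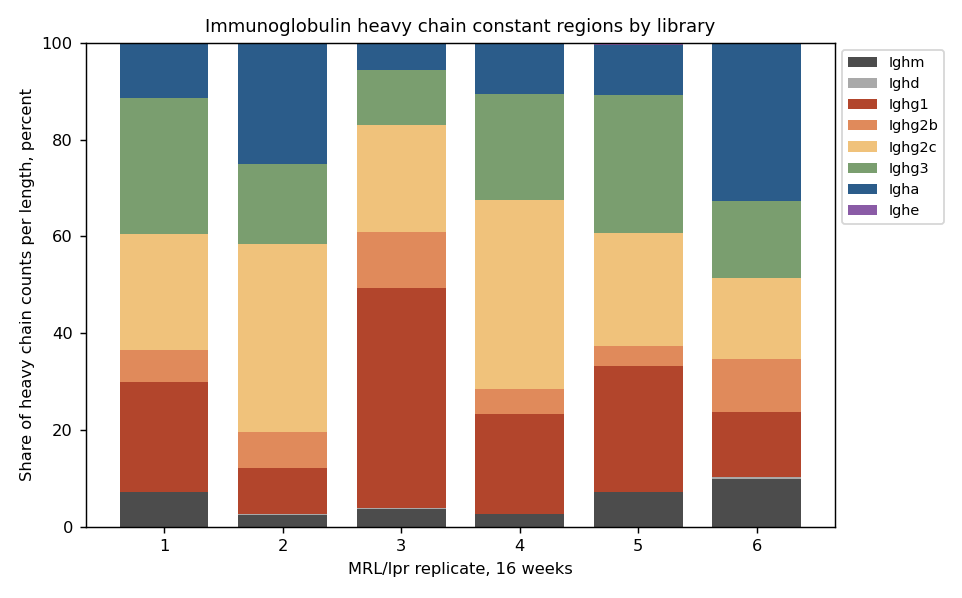
Stacked bars give the percent of heavy chain constant region counts, per length of gene, taken by each class in the 6 MRL/lpr libraries at 16 weeks. IgG genes and Igha fill most of each bar, with Ighg1 at 45.4% in replicate 3 and Igha at 32.6% in replicate 6.

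Genes of germinal centres, the sites of antibody maturation, rose less uniformly. Of 15 tested members of the germinal centre and follicular helper list 5 were higher and 0 lower, the median log2 fold change was 0.65, and 3, 3 and 4 calls remained. Icos, a costimulator of follicular helper T cells, had 1 count in the pooled controls and a count ratio of 199 (exact 95% interval 35.5 to 7875, adjusted p = 0.00265), with a log2 fold change of 7.17 that became 9.19 without MRL/+ replicate 1. Sh2d1a, the adaptor of T cell and B cell contacts, had no count in MRL/+ and was at least 65.0-fold higher. Bcl6, the master factor of both germinal centre B cells and follicular helper T cells, was 10.2 ± 3.24 CPM (SD, n = 6) against 6.95 ± 1.40 CPM (SD, n = 3) and did not pass the test (adjusted p = 0.352). Il21, a follicular helper cytokine, was 3.77 ± 0.857 CPM against 2.40 ± 0.42 CPM and did not pass either (adjusted p = 0.132). Of 9 tested follicular dendritic cell genes, 4 were higher and 0 lower (median log2 fold change 1.07), with 2, 1 and 1 calls remaining.

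T cell genes rose nearly as a block: 22 of 23 tested members were higher and 0 lower, with a median log2 fold change of 6.90 (6.53 with bounds). The list's sum was 431, 405, 290, 435, 129 and 66.0 CPM in MRL/lpr replicates 1 to 6 and 21.5, 21.2 and 20.4 CPM in MRL/+. Cd3e, the epsilon chain of CD3, the signalling part of the T cell receptor, ran from 0.983 to 14.01 CPM in MRL/lpr against 0, 0.0975 and 0.0798 CPM in MRL/+ (count ratio 144.8, exact 95% interval 39.9 to 1198, adjusted p = 0.00254). Cd6, a T cell adhesion receptor, was not counted in any MRL/+ library and was at least 81.3-fold higher. Cd4, the coreceptor of helper T cells that some myeloid cells share, rose 38.9-fold to 21.7 ± 16.6 CPM (SD, n = 6). Cd8a, the coreceptor of cytotoxic T cells, reached 7.09 ± 4.12 CPM (SD, n = 6) from 1 pooled control count, and its log2 fold change of 7.50 became 9.54 without MRL/+ replicate 2. The member not called was Lef1 (log2 fold change -0.02), at 15.9 CPM in MRL/lpr and 16.2 CPM in MRL/+, a level present in MRL/+ tissue, where the other T cell genes were low.

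Among lineage genes of helper and regulatory T cells 7 of 13 tested were higher and 0 lower (median log2 fold change 4.64, 3.73 with bounds), with 4, 4 and 2 calls remaining. Foxp3, the regulatory T cell factor, was not counted in MRL/+ and was at least 17.2-fold higher (adjusted p = 0.0099), a call lost without MRL/+ replicate 3 (adjusted p = 0.0524). Ifng, the interferon gamma gene, was 0.0819 to 3.96 CPM in MRL/lpr, not counted in MRL/+, and at least 17.7-fold higher (adjusted p = 0.0305). The Ifng call was lost without MRL/lpr replicate 1 and without each of MRL/+ replicates 1, 2 and 3, with an adjusted p of up to 0.104. Cytotoxic and natural killer genes were higher in 11 of 15 tested and lower in 0 (median log2 fold change 4.82), among them Gzmk, a granule protease of memory T cells, at a count ratio of 192 (exact 95% interval 53.0 to 1587), and Ctsw, a protease of cytotoxic cells, at 25.3-fold. Slamf7, a receptor of plasma cells and cytotoxic lymphocytes, was at least 127-fold higher.

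Inhibitory checkpoints, the receptors that restrain activated lymphocytes, were higher in 13 of 15 tested and lower in 0 (median log2 fold change 3.22), with 6, 6 and 6 calls remaining. Pdcd1, which encodes PD-1, ran from 0.819 to 9.04 CPM in MRL/lpr against 0, 0.0975 and 0.0798 CPM in MRL/+ (count ratio 98.2, exact 95% interval 27.02 to 813, adjusted p = 0.0035). Ctla4 was not counted in MRL/+ and was at least 57.0-fold higher. Havcr2, which encodes TIM-3 and is also found on macrophages, rose 8.71-fold, and Btla, a receptor on B and T cells, rose 43.7-fold. Fasl, the ligand of Fas, had 1 pooled control count and a count ratio of 104.3 (exact 95% interval 18.5 to 4136), and its log2 fold change of 6.22 became 8.26 without MRL/+ replicate 2.

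**Figure D3:**
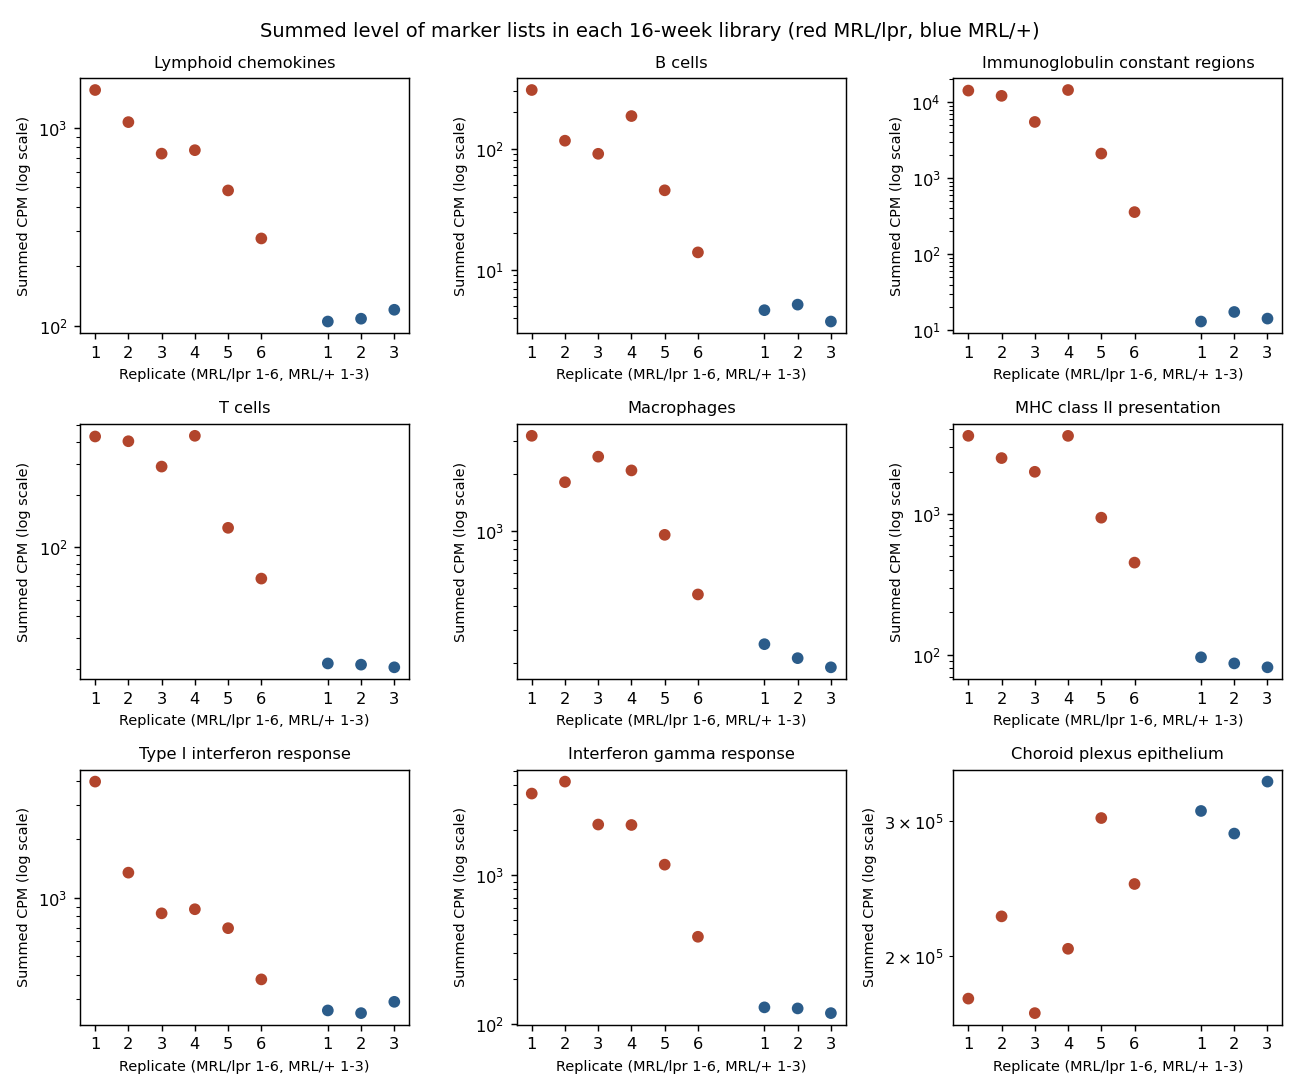
Each point is the summed CPM of a gene list in 1 library at 16 weeks on a log scale, with MRL/lpr replicates 1 to 6 in red and MRL/+ replicates 1 to 3 in blue. In the 8 immune lists each MRL/lpr library lies above the 3 MRL/+ libraries and replicate 6 is the lowest of the MRL/lpr libraries, and replicate 1 stands apart in the type I interferon list at 3981 CPM.

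Macrophage genes rose over a level that MRL/+ tissue already had. Of 20 tested macrophage genes 13 were higher and 0 lower (median log2 fold change 2.80), and the list's sum was 461 to 3198 CPM in MRL/lpr against 251, 212 and 189 CPM in MRL/+. Lyz2, the lysozyme of myeloid cells, was 1709, 951, 1639, 1188, 507 and 177 CPM in MRL/lpr replicates 1 to 6 and 79.7, 57.9 and 47.3 CPM in MRL/+, a 16.7-fold difference (log2 fold change 4.06, SE 0.76, adjusted p = 0.00323). Adgre1, which encodes F4/80, rose 7.63-fold and Ms4a7, a marker of macrophages at the brain's borders, rose 11.5-fold. Mrc1, the mannose receptor of resident border macrophages, was 11.7 ± 6.72 CPM (SD, n = 6) against 4.43 ± 2.48 CPM (SD, n = 3) and did not pass the test (adjusted p = 0.0598).

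Of 12 tested microglia genes 7 were higher and 0 lower (median log2 fold change 1.43), among them P2ry13, a purine receptor of microglia, at 6.63-fold, while Tmem119, a microglial membrane protein, rose 3.25-fold. In the list of lipid and disease-associated macrophage genes 7 of 16 tested were higher and 1 lower (median log2 fold change 0.73), with 5, 4 and 5 of the higher calls remaining. Trem2, a lipid receptor of macrophages and microglia, rose 5.44-fold and Itgax, which encodes CD11c, rose 131-fold. Apoe, which the choroid plexus makes in quantity, stood at 3453 ± 388 CPM (SD, n = 6) against 4101 ± 826 CPM (SD, n = 3) and did not pass the test (adjusted p = 0.321). The lower member was Cd9, a tetraspanin that epithelium also carries, at a log2 fold change of -0.48 (adjusted p = 0.038). Its call was lost without each of MRL/lpr replicates 1 to 4 and MRL/+ replicates 1 to 3, with an adjusted p of up to 0.178. Dendritic cell genes were higher in 10 of 16 tested and lower in 0 (median log2 fold change 2.26), with Clec9a, the marker of cross-presenting dendritic cells, at 11.02-fold. Neutrophil genes were higher in 2 of 7 tested (median log2 fold change 0.39), with 1, 0 and 1 calls remaining. Their sum was 17.2, 2.73 and 3.51 CPM in MRL/+ replicates 1, 2 and 3, and 7.75 to 31.6 CPM in MRL/lpr. Without MRL/+ replicate 1 the median became 2.64. The log2 fold change of S100a8, not called with all libraries, then went from 1.11 to 4.3 and was called (adjusted p = 0.0339). Of 10 listed mast cell and basophil genes only 2, Kit and Hdc, passed the low-count filter. Neither was called, and the other members were not tested.

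Antigen presentation rose in both of its arms. Of 12 tested genes of MHC class II presentation 11 were higher and 0 lower (median log2 fold change 5.02, 4.92 with bounds). Cd74, the invariant chain, was 1190, 815, 617, 1421, 235 and 116.8 CPM in MRL/lpr replicates 1 to 6 and 20.2, 16.2 and 15.5 CPM in MRL/+, a 42.4-fold difference (log2 fold change 5.40, SE 0.90, adjusted p = 0.00195). H2-Aa, H2-Ab1 and H2-Eb1, the class II chains, rose 34.5-fold, 30.04-fold and 49.2-fold. The member not called was H2-DMb1 (adjusted p = 0.0648), although its 6 MRL/lpr libraries lay above the 3 MRL/+ libraries. Of 17 tested genes of MHC class I presentation 16 were higher and 0 lower (median log2 fold change 2.95). H2-K1, a classical class I chain, ran from 321.8 to 3170 CPM in MRL/lpr (median 1583) and was 99.2, 107.9 and 133.4 CPM in MRL/+, a 14.7-fold difference (adjusted p = 0.00235). B2m, the class I light chain, rose 5.66-fold from 275 ± 24.8 CPM (SD, n = 3) to 1554 ± 786 CPM (SD, n = 6). The immunoproteasome genes Psmb8 and Psmb9 rose 29.6-fold and 28.0-fold, and Nlrc5, the activator of class I genes, rose 16.7-fold. Erap1, a peptide trimming enzyme, did not pass the test (log2 fold change 0.44, adjusted p = 0.163).

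Interferon-induced genes were higher in nearly all tested members. In the list for type I interferon, the cytokines of antiviral defence that are raised in lupus, 29 of 30 tested members were higher and 0 lower (median log2 fold change 4.18). Of these calls 12, 10 and 7 remained. In the list for interferon gamma 24 of 26 were higher and 0 lower (median log2 fold change 4.92), and 23, 23 and 22 calls remained. Ubd, a ubiquitin-like modifier induced by interferon gamma and TNF, had no count in MRL/+, ran from 4.59 to 124.6 CPM in MRL/lpr, and was at least 546-fold higher (adjusted p = 0.00317). Iigp1, an interferon gamma-induced GTPase, was 428, 868, 411, 300.3, 199 and 44.2 CPM in MRL/lpr replicates 1 to 6 against 1.32, 3.80 and 1.52 CPM in MRL/+ (170-fold, adjusted p = 0.00093), and its log2 fold change of 7.42 became 8.04 without MRL/+ replicate 2. Gbp4, a guanylate-binding protein, rose 94.9-fold. Socs1, the feedback inhibitor, and Ido1 were the 2 members not called (adjusted p = 0.131 and 0.368).

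The 2 lists differed in how the MRL/lpr libraries were placed. The interferon gamma sum was 3514, 4226, 2178, 2163, 1172 and 385 CPM in MRL/lpr replicates 1 to 6 and 129, 127 and 118 CPM in MRL/+. The type I sum was 3981 CPM in replicate 1 but 1347, 830, 872, 696 and 378 CPM in replicates 2 to 6, and 261, 253 and 290 CPM in MRL/+. Isg15, the ubiquitin-like protein secreted in antiviral responses, was 133.6 CPM in replicate 1 and 1.48 to 18.5 CPM in the other 5, against 1.32, 0.585 and 0.718 CPM in MRL/+. Its log2 fold change of 5.07 (SE 1.33, adjusted p = 0.0209) became 3.36 without replicate 1, and the call was lost without each of MRL/+ replicates 1, 2 and 3 (adjusted p up to 0.10). Ifit1, an RNA-binding antiviral protein, was 349 CPM in replicate 1 and 7.87 to 81.3 CPM in the other 5. Its log2 fold change of 5.39 became 4.22 without replicate 1, and the call was lost without MRL/+ replicate 3 (adjusted p = 0.0532). Irf7, the amplifier of type I interferon production, was 340.0 CPM in replicate 1 and 8.52 to 48.5 CPM in the other 5. Its log2 fold change of 4.86 became 3.22 without replicate 1, and the call was lost without each MRL/+ library (adjusted p up to 0.0687). Irf9, which serves type I interferon signalling, was spread more evenly, from 33.4 to 85.9 CPM (2.96-fold, adjusted p = 0.00163).

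Interferon signals act through short elements in promoters. The interferon-stimulated response element (ISRE) is bound by complexes of STAT and IRF factors, the gamma-activated site (GAS) by STAT dimers, and NF-kB elements by the factors that TNF family receptors activate. These were searched on both strands in the 300 bases around the RefSeq start site (250 before and 50 after, build GRCm38.p6, the C57BL/6J reference and not MRL sequence) of the 11812 tested genes with an entry. The ISRE was searched as GAAANNGAAA, the GAS as TTCNNNGAA, and the NF-kB element by its consensus. ISRE matches may overlap each other. Among all 11812 promoters 3.20% held the ISRE, 6.73% the GAS and 10.3% the NF-kB element. Among the 950 promoters of higher genes these shares were 8.74%, 10.8% and 13.2%, and among the 325 of lower genes 2.46%, 4.31% and 8.62%. In the type I interferon list 13 of 23 promoters held the ISRE (56.5%), and in the interferon gamma list 11 of 16 (68.8%) held the ISRE and 43.8% the GAS. In the MHC class I list 53.3% of 15 promoters held the NF-kB element. Both interferon lists hold genes that are textbook examples for these elements, so the shares are no independent result.

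The promoters of 5 of these genes are printed because they show the elements in place, 5′ to 3′ on the gene's strand with the matched elements before the start site in capitals. Those of Isg15 (chr4:156200769-156201068, minus strand) and Ifit1 (chr19:34640639-34640938, plus strand) belong to genes that stood highest in MRL/lpr replicate 1. Those of Gbp2 (chr3:142620413-142620712, plus strand), an interferon-induced GTPase that rose 28.3-fold, B2m (chr2:122147437-122147736, plus strand) and Ubd (chr17:37193642-37193941, plus strand) come from the interferon gamma and MHC class I lists. B2m and Ubd were also highest in replicate 1, at 2569 and 124.6 CPM against 2249 and 66.0 CPM in replicate 2.
Isg15: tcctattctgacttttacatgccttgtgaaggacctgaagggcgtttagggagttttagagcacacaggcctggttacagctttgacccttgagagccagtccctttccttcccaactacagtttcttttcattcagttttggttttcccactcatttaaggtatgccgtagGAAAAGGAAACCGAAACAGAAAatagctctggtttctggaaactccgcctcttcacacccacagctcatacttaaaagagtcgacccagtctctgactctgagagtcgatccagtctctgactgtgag
Ifit1: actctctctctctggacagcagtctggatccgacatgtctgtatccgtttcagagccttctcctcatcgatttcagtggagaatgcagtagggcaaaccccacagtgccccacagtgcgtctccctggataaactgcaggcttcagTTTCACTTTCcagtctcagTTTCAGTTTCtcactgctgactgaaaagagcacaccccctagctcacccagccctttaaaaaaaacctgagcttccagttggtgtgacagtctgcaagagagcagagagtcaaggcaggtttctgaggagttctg
Gbp2: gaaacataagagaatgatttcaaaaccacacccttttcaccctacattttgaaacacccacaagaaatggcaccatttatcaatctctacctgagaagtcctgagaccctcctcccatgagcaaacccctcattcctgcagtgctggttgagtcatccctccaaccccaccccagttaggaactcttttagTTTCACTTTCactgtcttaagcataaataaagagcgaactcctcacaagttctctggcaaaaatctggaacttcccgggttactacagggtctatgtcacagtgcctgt
B2m: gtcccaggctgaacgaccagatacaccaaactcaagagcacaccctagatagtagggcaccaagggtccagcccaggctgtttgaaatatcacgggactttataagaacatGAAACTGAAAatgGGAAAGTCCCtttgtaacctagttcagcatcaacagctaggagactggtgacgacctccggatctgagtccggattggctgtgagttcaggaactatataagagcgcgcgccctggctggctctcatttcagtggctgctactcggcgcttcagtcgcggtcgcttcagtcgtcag
Ubd: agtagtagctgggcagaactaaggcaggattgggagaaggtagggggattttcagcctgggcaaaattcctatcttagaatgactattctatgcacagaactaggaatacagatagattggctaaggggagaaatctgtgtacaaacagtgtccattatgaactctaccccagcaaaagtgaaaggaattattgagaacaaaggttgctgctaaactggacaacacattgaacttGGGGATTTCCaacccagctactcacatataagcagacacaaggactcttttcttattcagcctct
Isg15 holds 3 overlapping ISRE matches within 78 bases before its start site, and Ifit1 holds 2, the nearer ending 76 bases before the start. Gbp2 holds 1 ISRE, from 59 to 50 bases before the start, and 1 NF-kB element, from 7 to 16 bases after it and left in lower case. B2m holds an ISRE and, closer to the start, an NF-kB element from 126 to 117 bases before it. Ubd holds no ISRE or GAS in this window and 1 NF-kB element from 15 to 6 bases before the start. The windows of Cxcl13, Cxcl9, Ccl8 and Psmb9 held none of the 3 elements.

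Innate defence genes outside the interferon lists also rose. Of 21 tested complement genes 12 were higher and 0 lower (median log2 fold change 2.81), with 8, 8 and 7 calls remaining. C3, the central complement component, was 551, 205, 190.1, 648, 49.0 and 24.5 CPM in MRL/lpr replicates 1 to 6 and 2.54, 2.34 and 1.28 CPM in MRL/+, a 135-fold difference (log2 fold change 7.09, SE 1.29, adjusted p = 0.00284). C4b rose 10.1-fold, and C1qa, a chain of the C1q recognition molecule made by macrophages, rose 10.2-fold. Of 10 tested Fc receptor and antibody transport genes 6 were higher and 0 lower (median log2 fold change 2.90), among them Fcgr1, the high-affinity IgG receptor, at 10.2-fold. Fcgrt, the neonatal Fc receptor that carries IgG across barriers, did not pass the test (log2 fold change -0.17, adjusted p = 0.513).

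Sensors of nucleic acids, which lupus autoantigens can engage, were higher in 14 of 19 tested and lower in 0 (median log2 fold change 2.66), with 6, 9 and 4 calls remaining. Tlr7, the receptor of single-stranded RNA, ran from 4.51 to 18.1 CPM in MRL/lpr and was 2.02, 1.07 and 1.20 CPM in MRL/+, a 7.11-fold difference (adjusted p = 0.00189). Aim2, the cytosolic DNA sensor, rose 20.2-fold and Zbp1, which senses left-handed nucleic acids, rose 143-fold. Inflammasome and lytic death genes were higher in 13 of 16 tested and lower in 0 (median log2 fold change 3.16), with 6, 8 and 8 calls remaining and with Casp1 and Casp4, the inflammatory caspases, at 15.8-fold and 28.2-fold. Cytokine and growth factor genes were higher in 8 of 16 tested and lower in 0 (median log2 fold change 1.92), with 2, 2 and 1 calls remaining, and with 5 remaining without MRL/lpr replicate 1. Csf1, the macrophage growth factor, rose 2.95-fold. Acute phase genes were higher in 6 of 11 tested and lower in 0 (median log2 fold change 3.03), with 3, 3 and 2 calls remaining. Saa3, a serum amyloid A protein of macrophages and epithelium, had no count in MRL/+, was 1.48 to 42.8 CPM in MRL/lpr, and was at least 266.5-fold higher (adjusted p = 0.00628). Lcn2, lipocalin 2, was 1.13 to 3.24 CPM in MRL/lpr and 0.789, 0.0975 and 0.160 CPM in MRL/+ (5.58-fold, adjusted p = 0.0239). The Lcn2 call was lost without MRL/+ replicates 2 and 3 (adjusted p up to 0.128), and its log2 fold change of 2.45 became 3.80 without MRL/+ replicate 1.

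Adhesion genes that bring leukocytes through vessel walls were higher in 13 of 18 tested and lower in 0 (median log2 fold change 3.03, 2.70 with bounds), with 7, 7 and 5 calls remaining. The leukocyte side rose: Itgal, a chain of the integrin LFA-1, 49.2-fold, Selplg, the selectin ligand of leukocytes, 9.52-fold, and Itgb7, a chain of gut-homing integrins, 9.85-fold. On the vessel side 3 of 9 tested genes of lymphatic vessels and high endothelial venules were higher and 0 lower, and none of the 3 calls remained without any 1 of the MRL/+ libraries. Glycam1, a mucin of high endothelial venules, was 7.30, 9.38, 4.37, 16.2, 13.99 and 0.0819 CPM in MRL/lpr replicates 1 to 6 and 0, 0.195 and 0.0798 CPM in MRL/+, so that replicate 6 lay among the controls. Its count ratio was 96.6 (exact 95% interval 32.9 to 469.4, adjusted p = 0.0132). The call was lost without each MRL/+ library (adjusted p up to 0.0757), and the log2 fold change of 6.45 became 7.38 without MRL/+ replicate 2. Madcam1, the venule ligand of the alpha4 beta7 integrin, was 2.11-fold higher with all libraries (adjusted p = 0.0411), and this call was lost without MRL/lpr replicates 1, 2 and 4 and without each MRL/+ library (adjusted p up to 0.178). Of 17 tested endothelial genes 2 were higher and 0 lower, with 1, 1 and 1 calls remaining, to be read against 8.49% higher among all tested genes. Mfsd2a, a lipid transporter of brain endothelium, ran from 6.75 to 13.9 CPM in MRL/lpr and was 2.37, 4.87 and 3.83 CPM in MRL/+ (2.62-fold, adjusted p = 0.00368), with replicate 6 the highest. Proliferation genes were higher in 13 of 20 tested and lower in 0 (median log2 fold change 2.36), with 3, 5 and 1 calls remaining. Mki67, the Ki-67 antigen, rose 23.9-fold, with MRL/lpr replicate 1 at 43.0 CPM and replicate 6 at 2.38 CPM.

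The MRL/lpr libraries kept a similar order across these groups. Replicate 6 had the lowest and replicate 5 the second lowest sum in the lists of B cells, T cells, antibody constant regions, macrophages, MHC class II and class I presentation, and in both interferon lists. The epithelium sum was highest in those 2 libraries among the MRL/lpr libraries, at 302600 CPM in replicate 5 and 248200 CPM in replicate 6, against 168400 to 225200 CPM in replicates 1 to 4 and 288800 to 337600 CPM in MRL/+. These sums were taken within the same libraries and are not independent of each other. The part of the immune transcripts in the lower epithelium sums was not tested. The cerebellum sums were raised in replicates 1 to 3 and not in replicate 4, which had the highest T cell sum of the 6. The part of the cerebellum RNA in these differences was not tested.

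Some lower calls, those of muscle genes among them, rested on MRL/+ replicate 1. Of the 439 genes called lower 351 were not called without that library, and in 179 of these it was the highest of the 9 libraries. The same count was not made for replicates 2 and 3. Without MRL/+ replicates 1, 2 and 3 in turn 88, 155 and 90 of the 439 calls were kept. The parts of muscle RNA and of lower power in these losses were not tested. The skeletal muscle genes Mylpf, Tnni2, Mb and Casq1 were the 4 of 7 tested muscle genes called lower. Mylpf, a myosin light chain of fast fibres, was 144.6, 2.73 and 1.60 CPM in MRL/+ replicates 1, 2 and 3 and 1.28 to 2.27 CPM in MRL/lpr, so its log2 fold change of -4.81 became -0.29. For Tnni2, Mb and Casq1 the values of -5.76, -4.93 and -2.36 became 0.53, 0.80 and 0.81 without MRL/+ replicate 1, and the call of Casq1 was lost also without each of MRL/lpr replicates 1 to 4 (adjusted p up to 0.282). Car3, a carbonic anhydrase of muscle and fat, was 45.2, 1.85 and 1.44 CPM in MRL/+ and at most 0.819 CPM in MRL/lpr, and its log2 fold change of -4.93 became -1.64 (adjusted p = 0.12). The 6 MRL/lpr libraries of Car3 still lay below MRL/+ replicates 2 and 3.

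**Figure D4:**
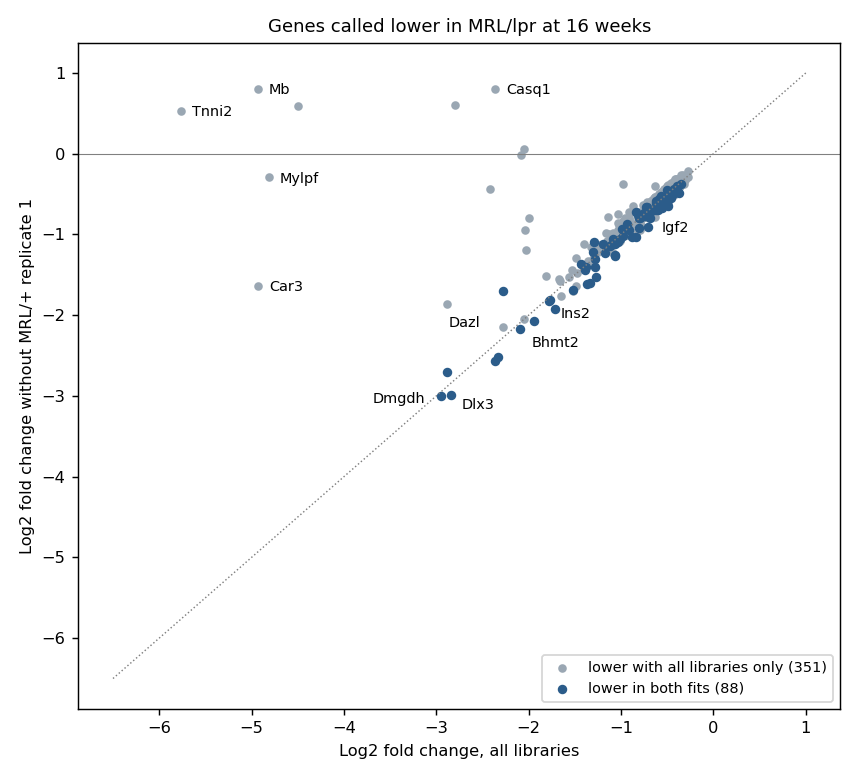
Each point is 1 of the 439 genes called lower in MRL/lpr at 16 weeks, with its log2 fold change over all libraries on the x axis and without MRL/+ replicate 1 on the y axis, and the dotted line marks equal values. The muscle genes Mylpf, Tnni2, Mb and Casq1 move toward or above 0 without that library, while the 88 genes lower in both fits, Dmgdh among them, stay near the line.

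Dmgdh and its neighbour Bhmt2 had the smallest p-values of the 88 genes lower in both fits. Dmgdh encodes the mitochondrial dehydrogenase that turns dimethylglycine into sarcosine, a step after betaine in choline breakdown. Its level was 17.1, 23.03, 16.1, 26.98, 24.3 and 21.4 CPM in MRL/lpr replicates 1 to 6 and 153.5, 155.6 and 187.5 CPM in MRL/+. It fell 7.71-fold (log2 fold change -2.95, SE 0.14, adjusted p = 2.37e-09) and stayed between -3.003 and -2.848 in the 9 leave-one-out fits. Bhmt2, a methyltransferase of homocysteine that uses S-methylmethionine, was 9.75, 13.7, 7.53, 10.3, 13.8 and 16.1 CPM in MRL/lpr and 44.6, 53.8 and 53.0 CPM in MRL/+, and it fell 4.25-fold (log2 fold change -2.09, SE 0.17, adjusted p = 5.66e-06). Replicates 5 and 6, lowest for immune genes, lay within the range of the others for Dmgdh and were the 2 nearest to MRL/+ for Bhmt2. Of 15 tested genes of choline and betaine breakdown these were the 2 lower, and 0 were higher.

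Dmgdh and Bhmt2 lie head to head on chromosome 13. Bhmt2 runs on the minus strand and Dmgdh on the plus strand, with 130 bases between them in the table's annotation (chr13:93674303-93674432, build GRCm38), of which 70.8% are G or C. The RefSeq window of Dmgdh (chr13:93674186-93674485, plus strand) is printed because it spans the stretch that both genes could start from, with those 130 bases in capitals.
Dmgdh: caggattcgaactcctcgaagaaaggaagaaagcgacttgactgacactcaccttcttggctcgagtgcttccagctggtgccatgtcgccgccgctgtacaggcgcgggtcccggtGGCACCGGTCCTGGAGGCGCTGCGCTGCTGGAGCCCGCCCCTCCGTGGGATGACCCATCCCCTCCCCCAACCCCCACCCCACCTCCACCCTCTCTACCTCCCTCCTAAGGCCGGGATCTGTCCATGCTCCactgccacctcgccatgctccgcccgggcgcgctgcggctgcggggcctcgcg
This is reference sequence, and differences between MRL/lpr and MRL/+ at this place were not tested. The Dmgdh window held none of the 3 elements, and the window of Bhmt2 held 1 NF-kB element, from 197 to 188 bases before its start.

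Other genes fell in each MRL/lpr library. Ins2, an insulin gene that the choroid plexus expresses, was 6.78 to 16.3 CPM in MRL/lpr (median 9.72) and 34.2, 34.7 and 40.1 CPM in MRL/+, and fell 3.41-fold (log2 fold change -1.77, SE 0.31, adjusted p = 0.00254). Igf2, the insulin-like growth factor next to it on chromosome 7, was 2408 to 4258 CPM in MRL/lpr and 4502, 4678 and 6797 CPM in MRL/+ (log2 fold change -0.68, adjusted p = 0.0252). The Igf2 call was lost without MRL/lpr replicates 1 and 3 and without MRL/+ replicate 3 (adjusted p up to 0.185). Nav3, a microtubule-associated protein, fell from 162.7 ± 17.9 CPM (SD, n = 3) to 66.0 ± 18.4 CPM (SD, n = 6). Steap1, a metalloreductase, fell from 244.5 ± 14.1 CPM to 100.5 ± 37.5 CPM, with replicates 5 and 6 the nearest to MRL/+. Dnajb1, a cochaperone of HSP70, fell from 93.2 ± 9.09 CPM to 49.6 ± 4.98 CPM (log2 fold change -0.91, SE 0.11, adjusted p = 0.000414). Of 14 tested heat shock and chaperone genes 3 were lower and 0 higher (median log2 fold change -0.33), with 1, 1 and 1 calls remaining. For Ins2, Igf2, Nav3, Steap1 and Dnajb1 the highest MRL/lpr library lay below the lowest MRL/+ library.

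Among the 88, Esrp1, which directs epithelial splicing, was 1.89 to 3.24 CPM in MRL/lpr and 6.93, 5.46 and 6.62 CPM in MRL/+ (log2 fold change -1.44, adjusted p = 0.007). Grhl2, a factor that activates epithelial junction genes, was 0.115 ± 0.0614 CPM (SD, n = 6) against 0.918 ± 0.256 CPM (SD, n = 3), a difference of -2.89 on the log2 scale (adjusted p = 0.00144). Dlx3 and Dlx4, neighbouring homeobox genes on chromosome 11, fell by 2.84 and 1.94 on the log2 scale, at 1.33 ± 0.727 CPM and 2.72 ± 1.02 CPM in MRL/+. Dlx4os, annotated on the opposite strand over Dlx4, fell with them by 2.33, and with a library kit that does not mark strand its reads cannot be told apart from those of Dlx4. Grhl2, Dlx3, Dlx4 and Dlx4os were singled out after their values were seen, and all are low in the tissue. The differences of Dmgdh, Bhmt2, Ins2, Nav3, Steap1, Dnajb1, Esrp1, Grhl2, Dlx3, Dlx4 and Dlx4os remained called when the libraries were scaled to the epithelium list. Of the 88 genes lower in both fits, 34 were also lower under that scaling. Among the lower calls lost under it were those of Igf2, Msx1, Slc22a5, Slc29a4, Kcne2 and Prlr. In that order their log2 fold changes became -0.25, -0.16, -0.19, -0.37, -0.53 and -0.73 (adjusted p = 0.187, 0.229, 0.214, 0.0543, 0.0506 and 0.0604). Igf2, Msx1 and Prlr belong to the epithelium list, so their values under this scaling are not independent of it.

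**Figure D5:**
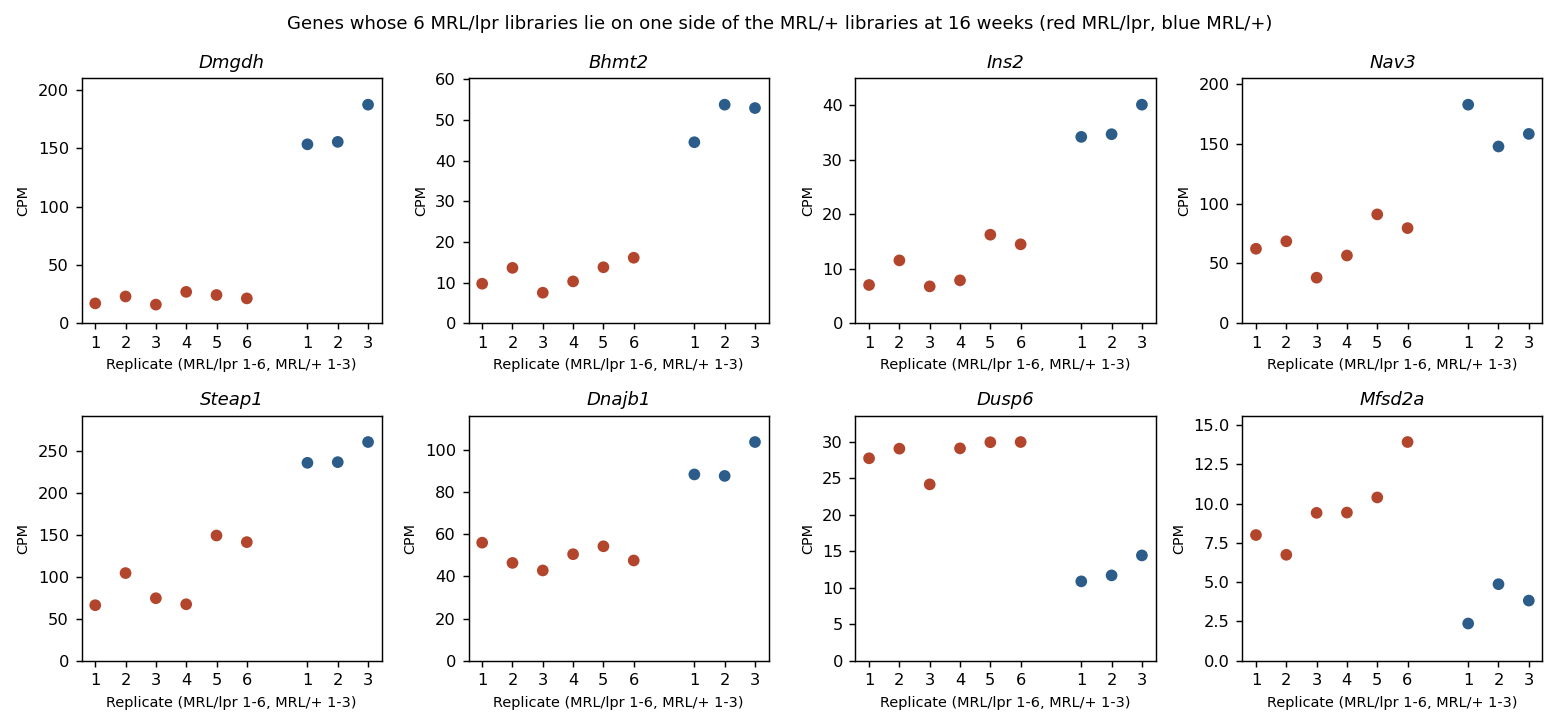
CPM of 8 genes in each library of 16 weeks, with MRL/lpr replicates 1 to 6 in red and MRL/+ replicates 1 to 3 in blue on axes that start at 0. Dmgdh, Bhmt2, Ins2, Nav3, Steap1 and Dnajb1 are lower and Dusp6 and Mfsd2a higher in all 6 MRL/lpr libraries, with no overlap between the strains.

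Dusp6 rose to nearly the same level in the 6 MRL/lpr libraries. It encodes the phosphatase that ends ERK signalling and is itself induced by it. Its level was 27.8, 29.1, 24.2, 29.1, 29.96 and 29.99 CPM in MRL/lpr replicates 1 to 6 and 10.9, 11.7 and 14.4 CPM in MRL/+, a 2.30-fold difference (log2 fold change 1.20, SE 0.17, adjusted p = 0.00125). Dusp6 and Atf3 were the 2 of 16 tested immediate early genes that were higher, and 0 were lower, to be read against 8.49% higher among all tested genes. Atf3, a stress-induced factor, was 7.75 CPM in replicate 1 and 1.97 to 3.76 CPM in the other 5 against at most 1.36 CPM in MRL/+, and its call was lost without each MRL/+ library (adjusted p up to 0.134).

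Of 25 tested genes of choroid plexus epithelial identity and secretion 0 were higher and 5 were lower, against 2.64% lower among all tested genes. In 8 of the 25 every MRL/lpr library lay below every MRL/+ library, against 8.75% of all. The median log2 fold change was -0.41, and 2, 2 and 0 of the lower calls remained. Without MRL/lpr replicates 1, 2 and 3 in turn 1, 2 and 1 remained, and 3 without replicate 4. Ttr was 121800 to 210500 CPM in MRL/lpr and 204100, 188500 and 232500 CPM in MRL/+ (log2 fold change -0.44, SE 0.21, adjusted p = 0.17), with replicate 5 inside the MRL/+ range. Kl, the gene of klotho, an antiageing protein that the choroid plexus secretes, was 2053 ± 442 CPM (SD, n = 6) against 2862 ± 396 CPM (SD, n = 3, adjusted p = 0.132). Msx1, a homeobox factor, was 154.4 to 248.4 CPM in MRL/lpr and 263.7, 286 and 344 CPM in MRL/+ (log2 fold change -0.57, adjusted p = 0.0135), a call lost without MRL/+ replicate 3 (adjusted p = 0.108). Prlr, the prolactin receptor, was 115.5 to 458 CPM in MRL/lpr and 590.1, 491 and 760.0 CPM in MRL/+ (log2 fold change -1.10, adjusted p = 0.0435). The Prlr call was lost without every one of the 9 libraries but MRL/lpr replicate 5, with an adjusted p of up to 0.183.

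The lists of transport and barrier genes held 7 lower calls and 1 higher call, to be read against 2.64% lower and 8.49% higher among all tested genes. Of 22 tested ion and water transport genes 3 were lower and 0 higher (median log2 fold change -0.15), and none of the 3 calls remained without any 1 of the MRL/+ libraries. Kcne2, a potassium channel subunit of the apical membrane, was 438 to 970 CPM in MRL/lpr and 1135, 1130 and 1189 CPM in MRL/+ (log2 fold change -0.91, adjusted p = 0.0227), and this call was lost without each MRL/+ library (adjusted p up to 0.0874). Aqp1, the apical water channel, was 362 ± 41.0 CPM (SD, n = 6) against 458 ± 116 CPM (SD, n = 3) and did not pass the test (log2 fold change -0.34, adjusted p = 0.175). Of 26 tested solute carriers 1 was higher and 2 were lower (median log2 fold change -0.16), and the higher call, of Slc7a5, was lost without each MRL/+ library (adjusted p up to 0.121). Of the lower calls 2, 2 and 0 remained. Slc29a4, a monoamine transporter of the choroid plexus, was 126.5 to 201 CPM in MRL/lpr and 252, 247 and 395 CPM in MRL/+ (log2 fold change -0.81, adjusted p = 0.00855). Slc22a5, the carnitine transporter, was 35.9 to 52.1 CPM and 62.4, 60.7 and 86.9 CPM (log2 fold change -0.62, adjusted p = 0.00662). Both calls were lost without MRL/+ replicate 3 (adjusted p = 0.101 and 0.0777). Of 20 tested junction genes 2 were lower and 0 higher (median log2 fold change -0.11), with 1, 1 and 1 calls remaining. Cldn2 and Cldn1, claudins of the tight junctions, were not called, with log2 fold changes of -0.35 and -0.14 (adjusted p = 0.269 and 0.562). The junction and transport genes that were not called are not shown by this to be alike in the strains.

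Of 18 tested genes of oxidative phosphorylation 2 were lower and 0 higher, the median log2 fold change was -0.58, and in 9 of the 18 every MRL/lpr library lay below every MRL/+ library (8.75% of all genes tested). Neither call remained without any 1 of MRL/lpr replicates 1 to 4 or MRL/+ replicates 1 to 3. Acss1, which makes acetyl-CoA from acetate in mitochondria, fell from 72.6 ± 14.7 CPM (SD, n = 3) to 36.0 ± 5.79 CPM (SD, n = 6), and Acadm, a dehydrogenase of fatty acid oxidation, fell from 212.5 ± 13.04 CPM to 111.5 ± 20.9 CPM. Both genes were chosen after their values were seen. The share of counts from mitochondrial genes was 5.12% to 10.1% in MRL/lpr and 9.07% to 10.9% in MRL/+, highest among MRL/lpr libraries in replicates 6 and 5. The part of the larger immune share in these values was not tested. Markers of pericytes, motile cilia, neurons, astrocytes, oligodendrocytes, erythrocytes, pineal gland, pituitary and cerebellum had no called member. In that order their median log2 fold changes were 0.55, 0.34, 1.30, 1.42, 0.51, -0.16, 0.78, -0.15 and 1.42, against 0.03 for all genes. The lowest of the 14 tested neuronal genes was at 0.71, so the lack of calls does not show equal levels in the strains. Among 21 tested fibroblast genes 1, Lum, was lower. Lum, a collagen-binding proteoglycan, was 93.8 CPM in MRL/lpr replicate 5 and 40.9 to 49.5 CPM in the other 5, against 116.1, 95.0 and 92.8 CPM in MRL/+ (adjusted p = 0.0411), and only without that replicate was the call kept.

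The same strain difference was set beside that of 12 weeks. No gene differed between the 2 ages at an adjusted p under 0.05 in edgeR (0 of 16598, 0%), and 2286 did at an unadjusted p under 0.05. DESeq2 and limma with voom also called 0, with 2626 and 3922 at an unadjusted p under 0.05. Where no gene differs, a share of about 0.05 falls under that threshold. MRL/+ replicate 1 of 12 weeks stood apart from replicates 2 and 3, with a chi-square per gene of 46.8 and 40.2 against them and 5.61 between those 2. Its mitochondrial share was 5.18%, against 9.42% and 7.72%. The test of the ages was not repeated without it, so the lack of calls does not show that the ages are alike. The log2 fold changes at 16 and 12 weeks were 6.10 and 5.87 for Cxcl13, 9.36 and 8.25 for Igkc, 6.90 and 8.92 for Cd3e, -2.95 and -2.86 for Dmgdh, and -2.09 and -1.93 for Bhmt2. For Ins2 they were -1.77 and -0.42, for Steap1 -1.28 and -0.16, and for Mfsd2a 1.39 and 0.24, with interaction differences of -1.36 (SE 0.46), -1.12 (SE 0.38) and 1.15 (SE 0.36) that each had an adjusted p of 0.361. Of the 88 genes lower in both fits at 16 weeks, 83 had a negative log2 fold change at 12 weeks and 24 were called lower there. The shares of all tested genes at 12 weeks are not given here, so these counts do not measure how alike the ages are. The MRL/+ libraries of the 2 ages are separate samples, but all 18 share 1 estimate of the spread.

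By position, chromosomes 6, 12 and 19 held the largest shares of higher genes, 14.8%, 12.3% and 12.2% of those tested, and chromosome 18 the smallest of the autosomes, 4.01%. Chromosomes 6 and 12 carry the kappa light chain and heavy chain loci, whose segments are counted as genes. Of the 88 genes lower in both fits 17 were on chromosome 11, which is 1.30% of its tested genes against 0.530% overall. None of the 11 tested genes of the mitochondrial genome was called.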

How the data were processed

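RNA was sequenced from choroid plexus of MRL/lpr and MRL/+ mice. The authors deposited raw counts of reads per gene in 1 table of 18 libraries, with gene positions and lengths in the columns. The submitters' processing notes name STAR 2.5.3a, featureCounts 1.26.0, DESeq2 1.16.1 and the build GRCm38. How strand and multiple alignments were handled was not stated in the labels or the file. Per the labels' protocols the libraries were made with the TruSeq RNA v2 kit, which does not mark strand.

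Of 50584 genes, 16598 passed edgeR's filterByExpr by group. All 18 libraries were fitted with edgeR 4.0.16 (TMM scaling, robust quasi-likelihood test, 1 mean per strain and age) in R 4.3.3, and p-values were adjusted by Benjamini-Hochberg over all tested genes, with a call at 0.05. The SE of a log2 fold change is its size divided by the square root of the F statistic. Fold changes in words are ratios of mean CPM. Where all MRL/+ counts are 0 the bound takes 3 counts pooled over the control group, and for 1 to 3 pooled counts the ratio of counts is given with an exact 95% interval. The pipeline was tested on simulated data. Alternatives used RLE size factors, scaling to the epithelium list, other filters, 16-week libraries alone, DESeq2 1.42.0, limma 3.58.1 with voom, a replicate block and the removal of each library.

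Named genes were a fixed panel, the 15 largest changes and the 8 largest CPM differences in each direction among reliably called genes, 5 lower genes lost without MRL/+ replicate 1 and the 4 members of smallest p in each list. Acadm, Acss1, Apoe, Cd9, Dlx3, Dlx4, Dlx4os, Erap1, Fcgrt, Gbp2, Grhl2, H2-DMb1, Ido1, Ifit1, Ighe, Irf7, Isg15, Lef1, Ltbr, Mrc1, Sdc1 and Socs1 fall outside this rule and were chosen after their values were seen. The genes, the 53 gene lists and the tests were chosen with earlier results of these data known. Promoter sequences are from RefSeq (GRCm38.p6). Some items are not reported here.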

Additional observations from a re-analysis of the deposited data

Results flagged for a closer look

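Each of 142 sets of 6 MRL/lpr values at 16 weeks (a named gene or the sum of a list) was checked for a library that lies far from the other 5, by Dixon's gap test at the 95% level, and 10 sets held one. Chance flags about 1 in 20 groups where the groups are independent and not chosen by their values. In 6 of the 10 sets the library was MRL/lpr replicate 1, at the high end. Isg15, Irf7 and Ifit1 were chosen after their values were seen, and the type I interferon sum contains them. These sets are therefore not independent, and the chance rate does not apply to them. Its type I interferon sum was 3981 CPM against 1347 CPM in the next library, Isg15 was 134 against 18.5 CPM, Irf7 was 340 against 48.5 CPM and Ifit1 was 349 against 81.3 CPM. Replicate 1 was also far above the others for Ms4a1, at 38.1 against 14.2 CPM, and for Atf3, at 7.75 against 3.76 CPM. Replicate 4 was low for Apoe, at 2682 against 3503 CPM, and high for Aqp1, at 441 against 358 CPM. Lum was 93.8 CPM in replicate 5 against 49.5 CPM in the next library. Grhl2, at very low counts, was 0.233 CPM in replicate 2 against 0.129 CPM.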

How the results depend on the processing

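Of the 110 named genes that were called, those that kept the call numbered 110 with RLE size factors, 102 scaled to the epithelium list and 98 of the 107 tested with the 16-week libraries alone, and 7 calls were lost with no filter. Over the 9 fits that left out 1 library 92 to 110 kept it, with 18 lost without MRL/+ replicate 3 and 3 changing sign without MRL/+ replicate 1. Without MRL/+ replicate 1 and MRL/lpr replicates 1 to 3 only 8 of 109 kept it, 100 lost it and 1 changed sign. The count of higher genes became 3974 scaled to the epithelium list, 2401 with voom, 13 without MRL/+ replicate 1 and MRL/lpr replicates 1 to 3, and 563 to 1717 over the 9 fits that left out 1 library. The count of lower genes became 59, 2448, 3 and 92 to 879 in the same settings, 171 with no filter, 262 with at least 10 counts in 6 libraries and 212 with a replicate block. The count of genes lower in both fits ran from 2 to 175 when a further library was left out. Same-numbered libraries of the strains did not deviate together, with correlations of 0.03, 0.06 and -0.49, so the replicate block, with 1212 higher genes, shares only a number. Fits with fewer libraries did not all call fewer genes. Without MRL/lpr replicates 5 and 6 in turn 1717 and 1667 genes were higher, and 879 and 604 were lower. The causes of these moves were not tested.

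Scaled to the epithelium list, the log2 fold changes of genes that were not called changed sign for Apoe (0.20), Aqp1 (0.11), Cldn1 (0.29), Cldn2 (0.0742), Fcgrt (0.27), Lef1 (0.39) and Ltbr (0.32). Lef1, at -0.02 with all libraries, also became 0.00020 with RLE size factors, 0.0019 with no filter, 0.0315 with at least 10 counts in 6 libraries, 0.00018 with 16-week libraries alone, 0.0010 with DESeq2, 0.17 without MRL/+ replicate 1 and MRL/lpr replicates 1 to 3. Without 1 library it ran from -0.114 to 0.0875. Cldn1 became 0.0167 without those 4 libraries. Without 1 library Cldn1 ran from -0.243 to 0.0013 and Ltbr from -0.278 to 0.14. The muscle genes Casq1, Mb and Tnni2 ran from -2.90, -5.52 and -6.35 to 0.81, 0.80 and 0.53, the highest values being those without MRL/+ replicate 1, and Casq1 became 1.08 without that library and MRL/lpr replicates 1 to 3. At total counts of 11164284 to 14602253 genes under the low-count filter were not tested, and 3 MRL/+ libraries limit the precision of each difference.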
